A study of Homo sapiens with 6 samples.

Results

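DNA replication and S-phase genes encode the proteins that load the replicative helicase onto origins, start it, copy the DNA and supply the nucleotides. Expression of 42 such genes was examined in MCF10A cells with C/EBPbeta-2 and in MCF10A cells alone, called control here. MCF10A is an established human mammary epithelial line that does not form tumours, and C/EBPbeta-2 is a protein isoform made from CEBPB, a transcription factor gene. The genes were taken from a fixed list of names, and all 42 had at least 1 probe set that the array annotation gives to that gene alone, out of 19775 genes so measured. Where a gene had several, the brightest probe set on average stands for it. The data are 6 arrays, 3 of MCF10A cells with C/EBPbeta-2 and 3 of control MCF10A cells, named biological replicates with nothing said of what separated them, so p-values measure the spread between these arrays. Both groups were grown in the same medium with horse serum, insulin, hydrocortisone, epidermal growth factor and cholera toxin, and no treatment is given. The sources used here do not give the way C/EBPbeta-2 was introduced, or whether the cells are a clone or a pool.

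Replication begins in G1 phase, when the origin recognition complex, CDC6 and CDT1 load the MCM2-7 helicase onto origins. In S phase CDC45 and the GINS complex join the helicase, and polymerases alpha, delta and epsilon copy the strands behind it. The clamp PCNA, placed by replication factor C, holds polymerases delta and epsilon on DNA. Most of these genes are transcribed around the G1 to S boundary under E2F factors, which bind short GC-rich motifs next to a run of T, so their RNA is widely read as a sign of cycling cells.

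The promoters of these genes carried such a motif more often than promoters at large. RefSeq promoter windows (GRCh38.p14, from 250 bases before to 50 bases after an annotated start) were at hand for 39 of the 42 genes, in 52 windows, and not for MCM4, MCM5 and GINS4. The E2F motif was searched as TTTCCCGC, TTTGGCGC, TTTCGCGC or TTTGCCGC on both strands. It lay in a window of 23 of the 39 genes (59.0%), against 4.0% of 27305 genes with a window. The CCAAT box (CCAAT, both strands), common in cell cycle promoters, lay in windows of 25 of the 39 genes (64.1%), against 39.7% of all. A C/EBP-type motif, TTGCNNAA on either strand, lay in windows of 2 of the 39 (5.1%), against 12.7% of all. A CCAAT box overlapped an E2F match in 1 of the 52 windows and the C/EBP-type motif in 0. A match is a run of letters, not a bound site.

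Windows of 4 genes are shown in lower case with the E2F matches in capitals. DTL had the largest difference between the groups, MCM3 was the gene with both an unadjusted p under 0.05 and groups that did not overlap, EXO1 was among the largest differences, and MCM6 carries the motif as a repeated pair of overlapping matches.
DTL, chr1:212035498-212035797, plus strand: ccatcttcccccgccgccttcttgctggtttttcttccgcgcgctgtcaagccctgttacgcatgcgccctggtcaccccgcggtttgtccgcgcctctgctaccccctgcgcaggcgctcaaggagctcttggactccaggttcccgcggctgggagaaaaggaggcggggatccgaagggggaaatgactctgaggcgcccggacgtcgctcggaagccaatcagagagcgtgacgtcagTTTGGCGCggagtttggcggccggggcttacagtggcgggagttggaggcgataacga
MCM3, chr6:52284693-52284992, minus strand: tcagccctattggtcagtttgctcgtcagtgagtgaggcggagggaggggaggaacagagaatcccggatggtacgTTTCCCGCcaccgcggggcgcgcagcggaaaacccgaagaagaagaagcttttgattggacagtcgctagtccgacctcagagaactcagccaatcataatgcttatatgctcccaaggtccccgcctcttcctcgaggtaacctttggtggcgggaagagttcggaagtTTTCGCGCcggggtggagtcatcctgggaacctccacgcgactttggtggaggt
EXO1, chr1:241847954-241848253, plus strand: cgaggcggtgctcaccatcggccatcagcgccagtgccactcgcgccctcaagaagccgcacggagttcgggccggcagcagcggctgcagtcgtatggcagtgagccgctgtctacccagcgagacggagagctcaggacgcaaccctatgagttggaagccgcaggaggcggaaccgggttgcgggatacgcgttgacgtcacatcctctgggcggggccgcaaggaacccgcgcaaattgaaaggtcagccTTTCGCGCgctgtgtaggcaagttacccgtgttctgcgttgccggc
MCM6, chr2:135876394-135876693, minus strand: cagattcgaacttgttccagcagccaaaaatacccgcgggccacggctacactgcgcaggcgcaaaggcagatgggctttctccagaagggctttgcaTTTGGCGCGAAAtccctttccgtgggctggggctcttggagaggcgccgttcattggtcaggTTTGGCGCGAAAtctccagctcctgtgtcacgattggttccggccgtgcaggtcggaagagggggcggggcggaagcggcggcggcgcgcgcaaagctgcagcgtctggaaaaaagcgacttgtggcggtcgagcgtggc
Counted from the annotated start, with bases before it negative, the DTL match lay at -8 to -1 and the second MCM3 match at -4 to 3. Each capital run of MCM6 holds a TTTGGCGC and, on the other strand, a match that overlaps it. Genes with and without a match differed little in their values on the arrays: the log2 difference between the groups had a median of 0.45 over the 23 with a match and 0.41 over the 16 without. Only exact letters in these windows were searched, so genes without a match may still have an E2F site. The split therefore cannot separate genes under E2F from others.

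The arrays themselves differed in ways the groups do not explain. Array medians were 22.0 to 23.6 on the linear intensity scale, and Pearson's r between arrays over all probe sets (log2) spanned 0.942 to 0.980, with pairs of unlike group about as close as pairs of like group. C/EBPbeta-2 replicate 2 and control replicate 1 had low poly-A spike controls, with probe set means of 3.85 and 3.98 (log2), called the low spike level here. The other 4 arrays had 7.21 to 8.25, the high spike level. The 18S ribosomal RNA probe sets were also lowest on the low spike arrays, at 5.62 with C/EBPbeta-2 and 8.05 in control cells. Their highest means were 12.19, for C/EBPbeta-2 replicate 1, and 12.17, for control replicate 2. The ACTB 3' minus 5' value, which rises with shortened RNA or cDNA, was 1.32 and 1.48 on the low spike arrays and -0.04 to 0.64 on the others. The same value for GAPDH showed no such split, at 0.22 and 0.12 on the low spike arrays and 0.21 to 0.32 on the others. CEBPB itself (212501_at) read 10.29, 10.50 and 11.38 with C/EBPbeta-2 and 11.27, 11.38 and 11.37 in control cells, so it could not be used to check the labels. Of the 6 measured epithelial markers 3 were higher and 3 lower with C/EBPbeta-2 (median log2 difference -0.05). KRT5 averaged 12.51 ± 0.16 with C/EBPbeta-2 and 12.64 ± 0.25 in control cells (SD, n = 3 each). KRT14 and CDH1 were much lower with C/EBPbeta-2, with log2 differences of -3.0 and -2.14 (limma adjusted p = 0.03 and 0.0245). ITGA6, KRT18 and EPCAM differed by 0.42, 0.09 and 0.03 and were not called. The mean of the fibroblast markers reached at most 4.48 with C/EBPbeta-2 and 4.49 in control cells, near the array medians. COL1A1 of that list stood higher, averaging 6.7 with C/EBPbeta-2 and 6.84 in control cells. The mean of the leukocyte markers was 4.63 to 4.91 with C/EBPbeta-2 and 4.53 to 4.70 in control cells. Of the 5 leukocyte markers measured, 2 were higher and 3 lower with C/EBPbeta-2. CD14 read 7.28, 6.85 and 7.09 with C/EBPbeta-2, against 6.05, 5.98 and 6.45 in control cells. Its log2 difference was 0.92 (limma adjusted p = 0.266). Limma called 0 genes of either list.

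To ask whether replication genes differ with C/EBPbeta-2, each gene was tested with limma over all 19775 genes. No member was called: 0 of 42 passed an adjusted p under 0.05, against 0.273% of all genes, and 2 passed an unadjusted p under 0.05, both higher with C/EBPbeta-2, where 2.52% of all genes did so in that direction. Yet 41 of the 42 had a mean with C/EBPbeta-2 above the control mean, where 51.9% of all genes did. RFC5 was the exception, with a log2 difference of -0.11. The median log2 difference was 0.41 over the members and 0.01 over all genes, and single values ran from -0.11 to 1.01. The 42 genes are transcribed together in cycling cells, so these are not 42 separate observations. The list was also chosen with earlier results of these data known, so the count gets no test. In whole cells a larger share of cells in S phase and more RNA per S-phase cell cannot be told apart.

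**Figure D1:**
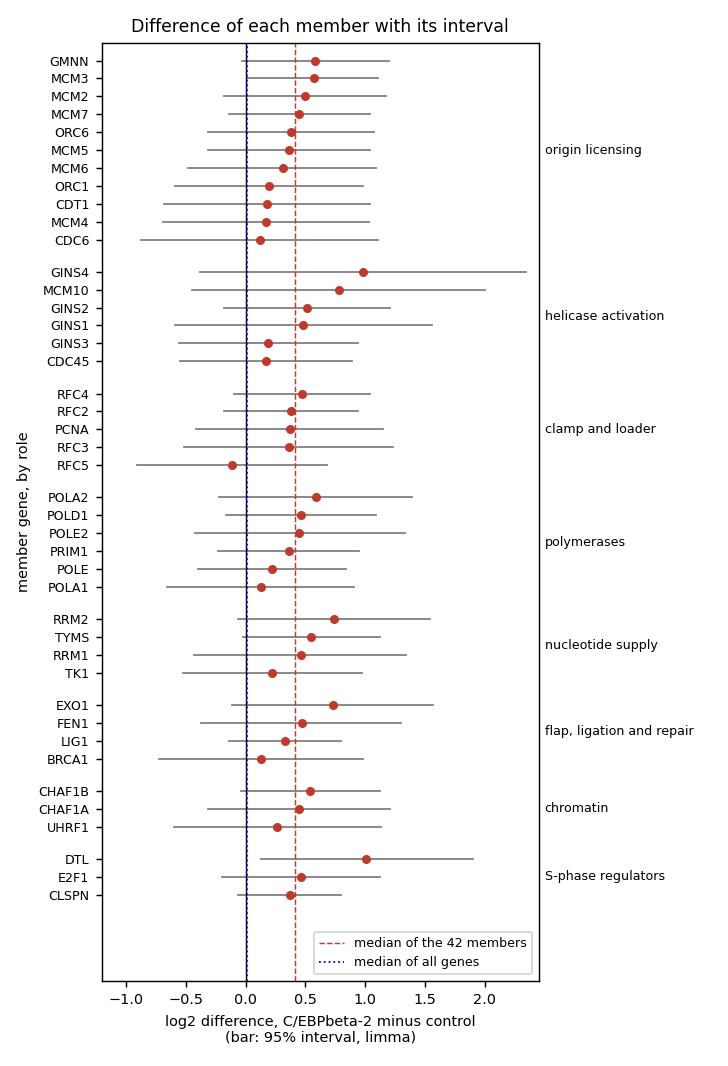
Fitted log2 difference (C/EBPbeta-2 minus control, x axis) of each of the 42 members (rows, by role), with bars for the 95% interval from limma over 6 arrays. All points but RFC5 lie right of 0, and the intervals of 2 members, DTL and MCM3, lie above 0.

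The intervals were wide against differences of this size. Standard errors of the 42 differences were 0.18 to 0.57. The 95% intervals of 30 members reached a log2 difference of 1, and those of 40 held 0. The lowest upper limit was 0.68, for RFC5, and the highest 2.34, for GINS4. The groups did not overlap for MCM3 and CHAF1B, 2 of 42, each with all C/EBPbeta-2 arrays higher, where 4.62% of all genes did so in that direction.

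**Figure D2:**
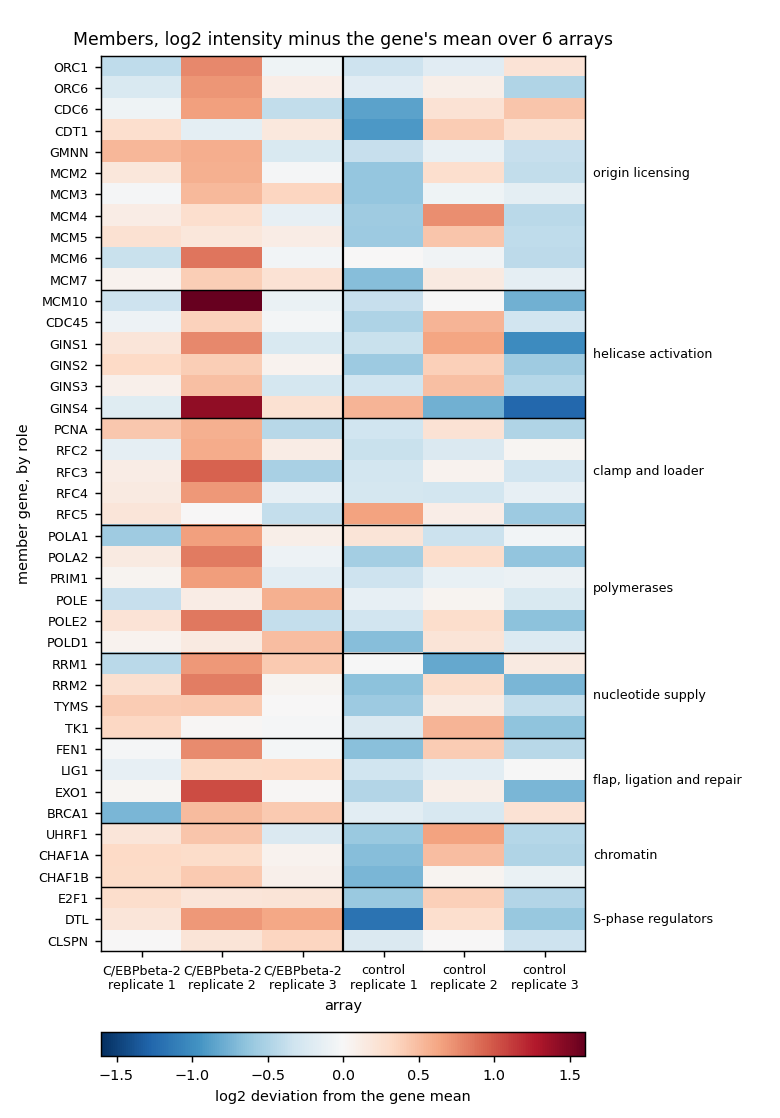
Log2 intensity of each member (rows, by role) on each array (columns, C/EBPbeta-2 left of control), as the deviation from the gene's mean over 6 arrays. The C/EBPbeta-2 replicate 2 column is red for most genes, control replicates 1 and 3 are mostly blue, and control replicate 2 is mixed, with 8 members at their highest there.

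The arrays of a group did not read these genes alike. As the mean deviation from each gene's own average, the members stood at 0.04, 0.55 and 0.03 on C/EBPbeta-2 replicates 1 to 3, against -0.40, 0.13 and -0.35 on control replicates 1 to 3, while all genes stood between -0.02 and 0.02 on every array. C/EBPbeta-2 replicate 2 was thus the highest array, and control replicate 2 was above the other C/EBPbeta-2 arrays. For 29 members C/EBPbeta-2 replicate 2 was the highest of the 6 arrays and for 21 control replicate 1 was the lowest. Both are low spike arrays. Control replicate 2 was the highest control for 30 members and lay above the C/EBPbeta-2 mean for 17.

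Which arrays were used therefore moved the size of the shift. Within the low spike level, 1 array against 1, the median difference was 0.96 and 41 of 42 members were higher with C/EBPbeta-2, where 53.4% of all genes were. Within the high spike level, 2 arrays against 2, the median was 0.16 and 31 members were higher, where 50.3% of all genes were. Neither has a test. Without C/EBPbeta-2 replicate 2 the median was 0.23, 34 members were higher and 0 passed an unadjusted p under 0.05. Without control replicate 2 the median was 0.61, 40 were higher and 20 passed an unadjusted p under 0.05 (2.97% of all genes in that direction), with 0 called and a lowest adjusted p of 0.151, for DTL. Over those remaining controls, every C/EBPbeta-2 array lay above control replicates 1 and 3 for 24 of 42 members, where 12.2% of all genes did so, a count chosen after the values were seen. With spike level as a block in the limma fit, the median was 0.41, 2 members passed an unadjusted p under 0.05 and 0 were called (lowest adjusted p 0.215, for GINS4), while 72 of all genes were called, against 54 without the block. The part of the 18S reading and of the ACTB 3' minus 5' value in these differences was not tested.

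**Figure D3:**
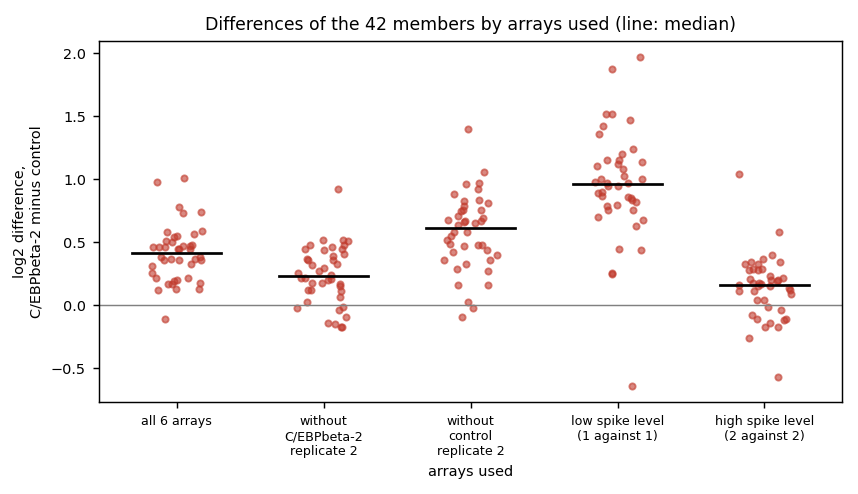
Log2 differences (C/EBPbeta-2 minus control) of the 42 members (points, spread sideways for view) with all 6 arrays, without 1 array, and within each spike level, with the median as a line. The medians are 0.41, 0.23, 0.61, 0.96 and 0.16 from left to right.

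The 11 licensing genes encode origin proteins, helicase loaders, helicase subunits and an inhibitor of loading. All 11 had a higher mean with C/EBPbeta-2, with a median log2 difference of 0.36. MCM3, a helicase subunit (201555_at), read 9.17, 9.70 and 9.53 with C/EBPbeta-2, against 8.56, 9.11 and 9.03 in control cells. Every C/EBPbeta-2 array was above every control array, by a small margin. The difference was 0.57 (SE 0.23, 95% interval 0.02 to 1.11), with an unadjusted p of 0.044 and an adjusted p of 0.924 by limma, and it was 0.28 within the high spike level and 1.14 within the low. GMNN, geminin, which holds back CDT1 to prevent a repeat of licensing (218350_s_at), read 10.83, 10.87 and 10.05 with C/EBPbeta-2, against 9.92, 10.17 and 9.92 in control cells. C/EBPbeta-2 replicates 1 and 2 stood above all controls and replicate 3 among them. The difference was 0.58 (SE 0.26, limma adjusted p = 1.00).

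MCM2 (202107_s_at), another helicase subunit, read 9.52, 9.91 and 9.32 with C/EBPbeta-2, against 8.72, 9.61 and 8.95 in control cells, so control replicate 2 lay inside the C/EBPbeta-2 range. Its difference was 0.50 (SE 0.28, limma adjusted p = 1.00), and it was 0.33 without C/EBPbeta-2 replicate 2, 0.31 without control replicate 1 and 0.75 without control replicate 2. The other helicase subunits differed by 0.17 (MCM4), 0.36 (MCM5), 0.31 (MCM6) and 0.45 (MCM7). MCM6, whose promoter holds 4 E2F matches, read 9.77, 10.98 and 10.08 with C/EBPbeta-2, against 10.13, 10.07 and 9.70 in control cells, and only C/EBPbeta-2 replicate 2 stood above the controls. MCM4 was higher on control replicate 2 (9.26) than on any C/EBPbeta-2 array (8.38 to 8.79). For the loaders and origin proteins the differences were 0.12 for CDC6, 0.18 for CDT1, 0.20 for ORC1 and 0.38 for ORC6. For CDC6 the difference was -0.57 within the high spike level and 1.52 within the low.

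The 6 genes of helicase activation had a median difference of 0.50, and all 6 means were higher with C/EBPbeta-2. GINS4, a subunit of the GINS complex (211767_at), read 6.21, 7.82 and 6.65 with C/EBPbeta-2, against 6.95, 5.63 and 5.15 in control cells. Control replicate 1 overlapped the C/EBPbeta-2 arrays and the spread within each group was wide. The difference was 0.98 (SE 0.57, limma adjusted p = 1.00), it was 0.52 without C/EBPbeta-2 replicate 2, 0.60 without control replicate 3, but 1.50 when control replicate 1 was left out, and the mean of its 4 probe sets differed by 0.44. MCM10, a factor that helps start the helicase (220651_s_at), read 6.74, 8.66 and 6.97 with C/EBPbeta-2, against 6.70, 7.06 and 6.30 in control cells. The difference of 0.78 (SE 0.51, limma adjusted p = 1.00) rested on C/EBPbeta-2 replicate 2 and was 0.17 without it.

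GINS2 (221521_s_at) read 8.72, 8.80 and 8.46 with C/EBPbeta-2, against 7.82, 8.78 and 7.84 in control cells. Control replicates 1 and 3 lay below all C/EBPbeta-2 arrays and control replicate 2 among them. Its difference was 0.51 (SE 0.29, limma adjusted p = 1.00) and 0.83 without control replicate 2, and a dimmer probe set, 1557595_at, gave -0.12. GINS1, GINS3 and CDC45 differed by 0.48, 0.19 and 0.17.

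Of the sliding clamp and its loader, 4 of 5 were higher with C/EBPbeta-2, and the median difference was 0.37. PCNA, the clamp (201202_at), read 11.68, 11.82 and 10.80 with C/EBPbeta-2, against 10.93, 11.48 and 10.77 in control cells. The groups overlapped, with C/EBPbeta-2 replicate 3 near the lowest control, and the difference was 0.37 (SE 0.33). RFC4, a loader subunit (204023_at), read 9.47, 10.02 and 9.19 with C/EBPbeta-2, against 9.04, 9.03 and 9.20 in control cells. The controls were close together and C/EBPbeta-2 replicate 3 lay among them, giving a difference of 0.47 (SE 0.24, limma adjusted p = 1.00), which was 0.24 without C/EBPbeta-2 replicate 2. RFC2 and RFC3 differed by 0.38 and 0.36. Dimmer RFC3 probe sets gave 0.08 and -0.03, and a dimmer RFC2 probe set gave 0.4. RFC5 (213734_at) read 8.88, 8.69 and 8.30 with C/EBPbeta-2, against 9.33, 8.79 and 8.10 in control cells, a difference of -0.11 (SE 0.34). Its other probe sets differed by 0.26 and 0.31, so its sign depended on the probe set.

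All 6 polymerase genes had a higher mean with C/EBPbeta-2, with a median difference of 0.41. POLA2, the accessory subunit of polymerase alpha (204441_s_at), read 7.82, 8.51 and 7.60 with C/EBPbeta-2, against 7.14, 7.96 and 7.05 in control cells. Control replicate 2 was again the control inside the C/EBPbeta-2 range, and the difference was 0.59 (SE 0.34, limma adjusted p = 1.00). It was 0.32 without C/EBPbeta-2 replicate 2, 0.20 within the high spike level and 1.36 within the low. Dimmer POLA2 probe sets, 236546_at and 244575_at, gave 0.27 and -0.02. POLD1, the catalytic subunit of polymerase delta, differed by 0.46, POLE2, a subunit of polymerase epsilon, by 0.45, and the primase PRIM1 by 0.36. The catalytic subunits POLE (0.22) and POLA1 (0.13) differed least.

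The enzymes of nucleotide supply had a median difference of 0.50, and 4 of 4 means were higher. RRM2, the S-phase subunit of ribonucleotide reductase (209773_s_at), read 11.42, 11.99 and 11.21 with C/EBPbeta-2, against 10.51, 11.45 and 10.44 in control cells. Control replicate 2 reached the C/EBPbeta-2 range and the other controls lay below it. The difference was 0.74 (SE 0.34, 95% interval -0.06 to 1.54, limma adjusted p = 1.00), and its other probe set gave 0.85. TYMS, thymidylate synthase (202589_at), read 11.67, 11.69 and 11.27 with C/EBPbeta-2, against 10.69, 11.40 and 10.89 in control cells. Here too control replicate 2 lay within the C/EBPbeta-2 range and the other controls below it, and the difference was 0.55 (SE 0.24, limma adjusted p = 1.00). RRM1, the large reductase subunit, differed by 0.46 and TK1, the salvage thymidine kinase, by 0.22. Dimmer probe sets gave 0.33 for RRM1 and 0.54 for TK1. Within the high spike level the differences of all 4 stayed above 0, from 0.21 for TK1 to 0.37 for RRM2.

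**Figure D4:**
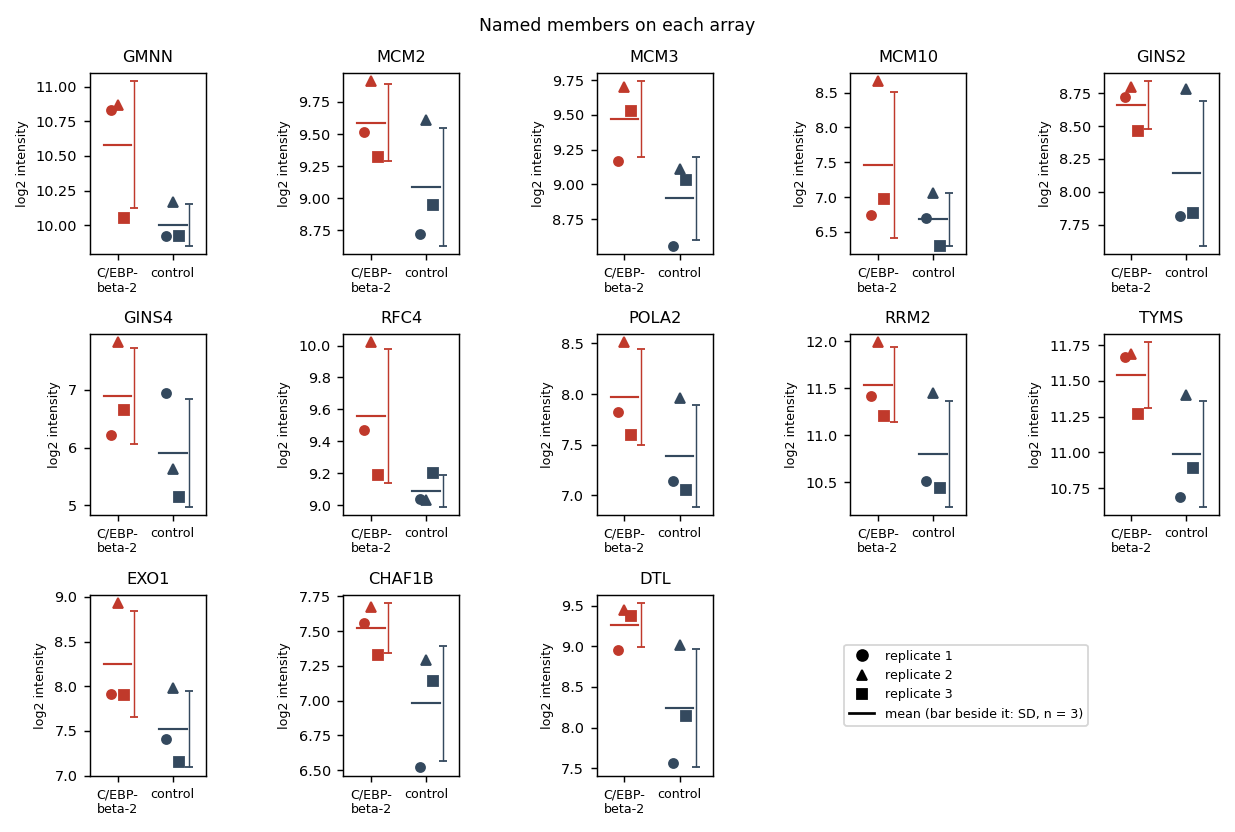
Log2 intensity of 13 members (panels) on each array, C/EBPbeta-2 left of control, with the marker for the replicate number, the line for the group mean and the bar for the SD (n = 3). The groups do not overlap for MCM3 and CHAF1B, and control replicate 2 is the highest control in most panels.

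Among the genes of flap cutting, ligation and repair, EXO1, an exonuclease of mismatch and break repair (204603_at), read 7.91, 8.93 and 7.90 with C/EBPbeta-2, against 7.41, 7.98 and 7.15 in control cells. C/EBPbeta-2 replicate 2 stood alone above the rest, and the difference of 0.73 (SE 0.35, limma adjusted p = 1.00) was 0.39 without it. FEN1, which cuts the flaps of Okazaki fragments, differed by 0.47, LIG1, which seals them, by 0.33, and the repair gene BRCA1 by 0.13. For FEN1 the difference was 1.42 within the low spike level and -0.01 within the high.

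Of the chromatin genes, CHAF1B, a subunit of the chromatin assembly factor that places histones on new DNA (204775_at), read 7.56, 7.67 and 7.33 with C/EBPbeta-2, against 6.52, 7.29 and 7.14 in control cells. The groups did not overlap, but C/EBPbeta-2 replicate 3 and control replicate 2 nearly met. The difference was 0.54 (SE 0.24, limma adjusted p = 1.00), and 0.31 without control replicate 1. Its partner CHAF1A differed by 0.45 and UHRF1, which guides maintenance methylation of new DNA, by 0.26.

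DTL, the substrate receptor of the CRL4 ubiquitin ligase that destroys CDT1 in S phase (218585_s_at), had the largest difference of the 42. It read 8.95, 9.45 and 9.37 with C/EBPbeta-2, against 7.57, 9.02 and 8.14 in control cells. Control replicate 2 lay just above C/EBPbeta-2 replicate 1, and the other controls lay well below. The difference was 1.01, or 2.02-fold (SE 0.37, 95% interval 0.13 to 1.90), with an unadjusted p of 0.0308 and an adjusted p of 0.793 by limma. It was 0.58 within the high spike level, 1.88 within the low, and 0.65 at its other probe set. E2F1, the activator of this programme (204947_at), read 7.18, 7.09 and 7.10 with C/EBPbeta-2, against 6.30, 7.28 and 6.42 in control cells. The C/EBPbeta-2 arrays were nearly equal, with control replicate 2 above and the other controls below them, and the difference was 0.46 (SE 0.28). A dimmer E2F1 probe set, 2028_s_at, gave 0.65. CLSPN, claspin of the replication checkpoint, read 4.49 to 4.84 with C/EBPbeta-2 and 4.16 to 4.50 in control cells, near the array medians, and differed by 0.37. Its other probe sets were dimmer still and gave 0.16, 0.09 and -0.02.

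Other probe sets of the same genes gave a similar but weaker picture. The members had 81 probe sets in all, of which 72 had a difference above 0, where 49.8% of all 54613 probe sets did. In a limma fit over those probe sets 4 of the 81 had an unadjusted p under 0.05 and were higher with C/EBPbeta-2, where 1.92% of all did so in that direction, and 0 were called, where 0.0659% of all were. Of the 39 that were not the brightest of their gene, 31 were above 0, with a median of 0.26. Probe sets of 1 gene disagreed in sign for 9 of the 24 genes with several. At 19 members the probe set used ends in _s_at or _x_at, which can share probes with other transcripts.

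The rest of the cell cycle programme was read from lists of related genes. Over all genes limma called 0.273%, 2.52% had an unadjusted p under 0.05 and were higher, and 51.9% had a difference above 0. None of 26 further replication genes was called by limma (0 at an unadjusted p under 0.05), and 21 had a difference above 0 (median 0.23). The widest were MCM8, a helicase of recombination (0.83), WDHD1, which links polymerase alpha to the helicase (0.61), and PRIM2, a primase subunit (0.56). The subunits of RPA, which coats single strands, differed by -0.03 (RPA1), -0.10 (RPA2) and 0.23 (RPA3). Limma likewise called 0 of 24 measured E2F-regulated S-phase genes, a list that also holds E2F partners such as RB1, and 3 had an unadjusted p under 0.05 and 21 were above 0 (median 0.30). The 3 were SKP2, an F-box protein that targets the inhibitor p27 (0.59, adjusted p = 0.702), E2F7, a repressor of the E2F family (0.92, adjusted p = 0.807), and CCNA2, cyclin A2 (0.69, adjusted p = 0.952). Next to E2F7 the widest differences were those of CCNE2, cyclin E2 (0.77, adjusted p = 1.00), and CDC25A, a phosphatase that activates CDK2 (0.70, adjusted p = 1.00). The 12 mitosis markers were all above 0 (median 0.38), with 0 called by limma and 0 at an unadjusted p under 0.05. The widest were the checkpoint kinase BUB1 (0.77), cyclin B1, CCNB1 (0.63), and the kinetochore protein CENPF (0.62).

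These lists did not follow the members on every array. On C/EBPbeta-2 replicate 2 the mean deviation was 0.55 for the members, 0.53 for the further replication genes, 0.73 for the E2F-regulated genes and 0.50 for the mitosis markers. On control replicate 2 it was 0.13 for the members but -0.31 for the further replication genes and -0.38 for the mitosis markers, with the E2F-regulated genes at 0.02. That array was the highest control for 30 of 42 members, 14 of 24 E2F-regulated genes, 9 of 26 further replication genes and 2 of 12 mitosis markers. Within the high spike level the mitosis markers kept 12 of 12 above 0 (median 0.33), where the members had 31 of 42 (median 0.16). Of all genes 50.3% were above 0 there. The difference between the lists was not tested.

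**Figure D5:**
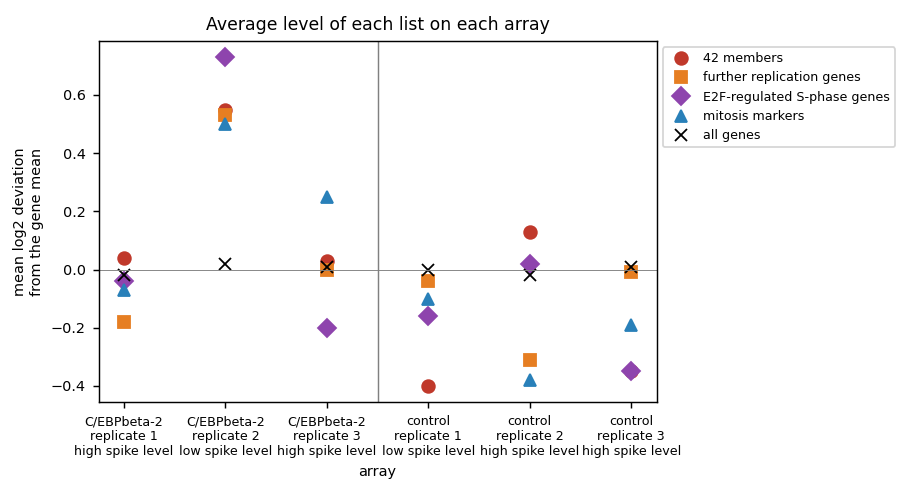
Mean log2 deviation from the gene mean (y axis) of the 42 members, 3 related lists and all genes on each array (x axis, C/EBPbeta-2 left of control, with the spike level). C/EBPbeta-2 replicate 2 is high for the 4 cell cycle lists, and control replicate 2 separates the members (0.13) from the mitosis markers (-0.38).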

How the data were processed

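The authors deposited 1 intensity for each probe set on each array, on a linear scale (4.17 to 17825, 0 missing, 0 below 0). The submitters' processing notes name RMA with no version, and the sources used here do not say how they came to a linear scale. RNA was amplified from an oligo-dT primer for Affymetrix arrays, per the labels' protocols. No detection calls were used, so low values have no stated background, and the number of arrays limits the precision.

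Values were transformed to log2 with no pseudocount or further normalization. Of 54675 probe sets, 62 manufacturer controls were set aside. The annotation gave 1 symbol to 41091 of the other 54613, several to 1801 (not named) and none to 11721.

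The comparison was fitted at gene level with limma 3.58.1 in R 4.3.3 (lmFit, eBayes), C/EBPbeta-2 minus control over 6 arrays without covariates, two-sided, with Benjamini-Hochberg adjustment over 19775 genes, and was tested on simulated data. Called means an adjusted p under 0.05. SDs are between the 3 arrays of each group. The members, lists, rules and most alternatives were chosen with earlier results of these data known. Full values are given for the 12 members with the largest size of difference and the largest of each role group. PCNA, MCM6, RFC5, E2F1 and CLSPN were added after their values were seen. Of the related lists the called genes and the 3 largest are named by rule, and RPA subunits, SKP2, CCNA2, CEBPB and marker genes were named outside it. Some genes of the related and marker lists are not reported here. Alternatives left out each array, added the replicate number or spike level as a block, took differences within spike levels (low under the midpoint of the lowest and highest array), and changed the normalization, dim filter (mean log2 under 4.52), pseudocount (16), probe set rule, variance prior and array weights.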

Additional observations from a re-analysis of the deposited data

How the results depend on the processing

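Limma called 0 members and 0 related genes in every alternative that gives a test, including leaving out each array and a prior variance from all probe sets, the last chosen after seeing the data. The lowest member adjusted p in any of them was 0.0948, for DTL with array weights. The number of members at an unadjusted p under 0.05, 2 with all arrays, ranged from 0 to 20 when 1 array was left out: 0 without C/EBPbeta-2 replicate 2 or control replicate 3, 1 without control replicate 1, 3 without C/EBPbeta-2 replicate 1, 4 without C/EBPbeta-2 replicate 3 and 20 without control replicate 2. It was 14 with array weights, 5 with the replicate block, 4 with each array centred on its median, and 1 with dim probe sets left out (41 members tested) or without _x_at and _s_at probe sets (31 tested). The cause was not tested. Over all genes the share at an unadjusted p under 0.05 and higher with C/EBPbeta-2 was 2.52% with all arrays, 1.78% to 3.06% with 1 array left out, 4.99% with array weights and 1.88% with the replicate block, and limma called 54, 8 to 75, 214 and 0 genes in these. That share was 2.74% with arrays centred, 2.97% with dim probe sets left out and 2.33% without _x_at and _s_at probe sets. The median difference was 0.23 to 0.61 with 1 array left out, 0.36 to 0.47 under the other fits, 0.96 within the low spike level and 0.16 within the high. GINS2 turned to -0.12 without _x_at and _s_at probe sets, where a dimmer probe set stands for it. Over 13 named members and 244 alternative values this was the 1 change of sign, but these members were picked for the size of their difference. Of all 42 members, 41 were above 0 with all arrays, 34 without C/EBPbeta-2 replicate 2 and 31 within the high spike level. Whether the replicate numbers pair the arrays was not settled. Deviations from the group means correlated at -0.52, -0.60 and 0.34 for replicates 1, 2 and 3, but the arrays of replicates 1 and 2 differed in spike level. The replicate block changed no call among the members. With dim probe sets left out, 40 of 41 members were above 0, where 54.9% of the genes tested were. Centring each array on its median moved the median of all genes to 0.03.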
